A study of Mus musculus with 6 samples.

Results

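Contacts of 2 promoters were compared within 1 cell type: Satb1 and Ikzf1, each used as the bait of 1 4C library from DP thymocytes. These were 2 of the 6 libraries in the series, chosen as those whose labels give DP thymocytes and 1 of these baits. The other 4 libraries came from mouse ES cells (the Sox2 control region, SCR, in 2 replicates, and Satb1 in 1 library) and from cells differentiated from ES cells (SCR, 1 library). DP (double-positive) thymocytes are CD4+/CD8+ cells of the thymus, taken here from c57/Bl6 mice of 4 weeks and sorted by FACS for CD4 and CD8a, with no treatment or altered allele named in the labels. Both libraries were made with DpnII and Csp6I after fixation with 2% formaldehyde for 10 min. Nothing in the labels says whether the 2 libraries came from the same animals or from pooled ones, and 4C reads DNA contacts, not expression, so the DP label could not be checked against marker genes. With 1 library per bait there is no replicate error for either promoter, and no test of the difference was made. As a measured scale, the same quantities are given for the 2 ES SCR libraries, which are the only replicates in the series.

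In 4C, chromatin is fixed, cut with a restriction enzyme and ligated, and the DNA joined to 1 chosen fragment (the bait) is amplified and sequenced, so that the reads on every other fragment reflect how often it lay near the bait. Reads usually thin out with distance from the bait, and stretches where they thin out abruptly are seen at the ends of chromatin domains. Satb1 encodes a DNA-binding organizer of chromatin that is abundant in thymocytes and needed for T cell development. Ikzf1 encodes Ikaros, a zinc finger transcription factor of lymphocyte development. Both are expressed in DP thymocytes, which allows the contact ranges of 2 active promoters to be set side by side in the same cell type.

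The unit of measurement is the DpnII fragment, the DNA between neighbouring GATC sites, and each read begins at a fragment end. Shown first are the promoters, as the 250 bases before the RefSeq start site nearest to each bait (RefSeq sequences of the GRCm38.p6 table, matched 1 time each to mm9), with DpnII sites (GATC) and Csp6I sites (GTAC) in capitals.
Satb1 promoter, chr17:51965914-51966163, minus strand: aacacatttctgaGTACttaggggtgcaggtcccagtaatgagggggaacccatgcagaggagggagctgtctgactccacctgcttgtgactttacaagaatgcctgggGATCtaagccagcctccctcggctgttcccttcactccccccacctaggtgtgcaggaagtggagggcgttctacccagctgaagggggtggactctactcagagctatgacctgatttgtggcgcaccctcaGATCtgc
Ikzf1 promoter, chr11:11585678-11585927, plus strand: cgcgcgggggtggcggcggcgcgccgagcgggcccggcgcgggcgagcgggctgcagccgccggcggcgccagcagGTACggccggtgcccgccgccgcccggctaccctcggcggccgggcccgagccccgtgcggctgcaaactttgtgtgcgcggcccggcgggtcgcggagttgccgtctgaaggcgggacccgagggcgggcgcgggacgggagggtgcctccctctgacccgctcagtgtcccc
The Satb1 stretch holds 2 GATC and 1 GTAC sites and has 56.4% G and C, whereas the Ikzf1 stretch holds 0 GATC and 1 GTAC sites and has 82% G and C. Among the 32851 promoters of the table, 41.9% hold GATC and 31.5% hold GTAC in such a stretch (both sites read the same on either strand). These letters say only where the enzymes can cut and set the size of the fragments counted there. RefSeq gives 5 start sites for Satb1 and 2 for Ikzf1, so other promoters of the same genes are not shown. The Satb1 start site shown lies 3.91 kb upstream of the bait position and its fragment had 13513 reads. The Satb1 start site farthest upstream, at 10.6 kb, lies on a fragment with 0 reads. The Ikzf1 start site shown lies at -2.41 kb (downstream distances are written as negative) and its fragment, of 1151 bp, had 38316 reads.

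The fragments with most reads beyond 20 kb are shown by their ends, with the DpnII site and the bases that follow it up to the length of the prey read in capitals (26 nt for Satb1, 25 nt for Ikzf1).
Satb1 most read fragment, left end, chr17:51940146-51940205, plus strand: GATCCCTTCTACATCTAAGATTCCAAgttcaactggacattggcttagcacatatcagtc
Satb1 most read fragment, right end, chr17:51940275-51940334, minus strand: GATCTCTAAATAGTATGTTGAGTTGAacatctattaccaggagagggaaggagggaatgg
Ikzf1 most read fragment, left end, chr11:11461147-11461206, plus strand: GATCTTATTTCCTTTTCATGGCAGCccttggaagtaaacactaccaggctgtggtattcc
Ikzf1 most read fragment, right end, chr11:11461702-11461761, minus strand: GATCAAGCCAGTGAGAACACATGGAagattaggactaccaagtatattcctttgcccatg
The Satb1 fragment has 185 bp, lies at -21.8 kb in an intron of Satb1 itself and had 6184 reads, 0.310% of its library. The Ikzf1 fragment has 611 bp, lies 122 kb upstream in an intron of the noncoding gene Gm11998 and had 13965 reads, 0.603% of its library. Both ends of both fragments are unique in mm9 at the prey length. The 5 fragments with most reads beyond 20 kb were spread out for Satb1, with 3 in introns of Satb1 (at -21.8, -45.8 and -59.6 kb) and 2 in no annotated gene (61.0 and 363 kb upstream). For Ikzf1 all 5 lay in introns of Gm11998, between 110 and 122 kb upstream.

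Very short fragments also carried many reads, and they are shown with 20 bases on each side and their GATC sites in capitals.
Satb1 short fragment, chr17:51960543-51960592, plus strand: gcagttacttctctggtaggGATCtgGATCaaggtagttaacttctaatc
Ikzf1 short fragment, chr11:11473519-11473576, plus strand: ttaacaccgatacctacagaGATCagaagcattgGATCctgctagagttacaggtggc
The Satb1 fragment is 6 bp long, lies at -1.44 kb and had 19128 reads. The Ikzf1 fragment is 14 bp long, lies 110 kb upstream and had 11040 reads. A prey read of 26 or 25 nt is longer than such a fragment and runs into its neighbour. Fragments shorter than the prey read held 2.78% of the reads within 1.5 Mb for Satb1 and 5.07% for Ikzf1.

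The deposited counts summed to 1997083 reads for Satb1 and 2314166 for Ikzf1, of which 1657848 (83.0%) and 1705392 (73.7%) lay within 1.5 Mb of the bait. Over the whole bait chromosome the numbers of fragments read were nearly equal, 5510 (Satb1) and 5420 (Ikzf1). Within 1.5 Mb these numbers parted, with 2962 of 7547 fragments for Satb1 (39.2%, 95% Wilson interval 38.1 to 40.4%) and 1138 of 7735 for Ikzf1 (14.7%, 13.9 to 15.5%). Because PCR duplicates cannot be told from separate ligations, all intervals here cover the counting error only. Depths within 1.5 Mb were so close that levels, given as mean reads per fragment, were compared as deposited.

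The files differ in which fragment at the bait is not listed. For Satb1 it is the fragment of 1721 bp that holds the bait position itself. For Ikzf1 it is a fragment of 21 bp next to it, while the fragment of 795 bp that holds the bait position stays in the file with 124337 reads (5.37% of the library). A neighbour of 737 bp, 1.12 kb upstream, had 61345 reads (2.65%). No Satb1 fragment passed 2%, and the highest had 34604 reads (1.73%). Since reads next to the bait weigh on every share of reads, the shares were also computed without the nearest 20 kb.

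The Satb1 promoter had its reads spread over a much longer stretch of chromosome than the Ikzf1 promoter. Of the reads within 1.5 Mb, 50% lay within 194 kb of the Satb1 bait and within 44.3 kb of the Ikzf1 bait, a ratio of 4.37. For 75% of the reads the distances were 471 and 121 kb, and for 90% they were 712 and 178 kb, a ratio of 4.00. The first 200 kb took up 50.5% of reads for Satb1, while for Ikzf1 they took up 93.9%. Beyond 20 kb from the bait the 50% distances were 347 and 110 kb and the 90% distances 791 and 199 kb, so the order did not rest on the fragments beside the bait. The 2 ES SCR libraries were 66.6 and 70.9 kb at 50% and 539 and 492 kb at 90%, a ratio between replicates of 1.06 and 1.10. The ratio between the 2 promoters was larger than the ratio between these replicates at each of the 3 shares.

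**Figure D1:**
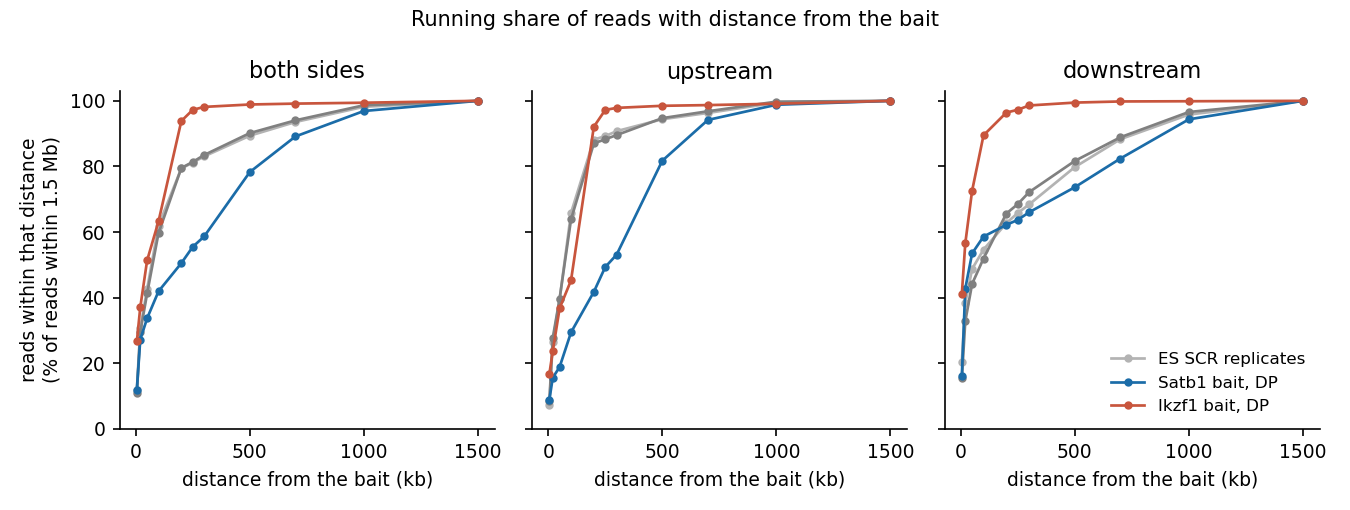
Running share of the reads within 1.5 Mb (y axis, percent) against distance from the bait (x axis, kb) for both sides, upstream and downstream, with points at the distances computed and straight lines between them. The Ikzf1 curve (red) reaches 93.9% at 200 kb where the Satb1 curve (blue) is at 50.5%, and the 2 ES SCR replicates (grey), which lie close to each other, run between them at 200 kb and beyond in the panel of both sides.

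The sides of the bait were not alike in extent. Upstream of the bait, 50% and 90% of that side's reads lay within 258 and 633 kb for Satb1 and within 107 and 190 kb for Ikzf1. Downstream, on the side of the gene body, the 50% distances were short for both promoters, 37.2 kb for Satb1 and 12.6 kb for Ikzf1. The 90% distances downstream were 857 and 101 kb. The downstream Satb1 reads thus fell in a dense part close to the bait and a long thin part, with 58.6% of them within 100 kb and 82.4% within 700 kb. For Ikzf1, 89.5% of the downstream reads lay within 100 kb.

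By distance, the level was higher for Ikzf1 near the bait and higher for Satb1 far from it. In 10 distance classes of equal width on a log scale from 20 kb to 1.5 Mb, the mean was 994 reads per fragment for Satb1 and 2234 for Ikzf1 in the nearest class (20 to 30.8 kb). From 112 to 173 kb it was 297 against 1143 reads, 3.86 times as high for Ikzf1. From 173 to 267 kb the means over both sides were close, at 279 and 323 reads, with 475 and 599 upstream and 83.3 and 54.4 downstream. Between 267 and 411 kb the Ikzf1 level was 30.0 reads while that of Satb1 was 337, and the ratio of Satb1 over Ikzf1 was 11.2 there, 56.2 from 411 to 633 kb, 40.5 from 633 to 974 kb and 5.47 from 974 kb to 1.5 Mb. In that last class the levels of Satb1 and Ikzf1 were 8.26 and 6.78 reads upstream and 34.6 and 0.732 downstream. Scaled to the reads within 1.5 Mb, the ES SCR replicates differed between 1.01-fold and 1.34-fold in the 10 classes over both sides. The promoters differed by more than the replicates in 8 of the 10 classes, the exceptions being 47.4 to 73.0 kb and 173 to 267 kb. Upstream alone it was 9 of 10, the exception being the last class (1.25-fold against 2.10-fold), and downstream alone 8 of 10.

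**Figure D2:**
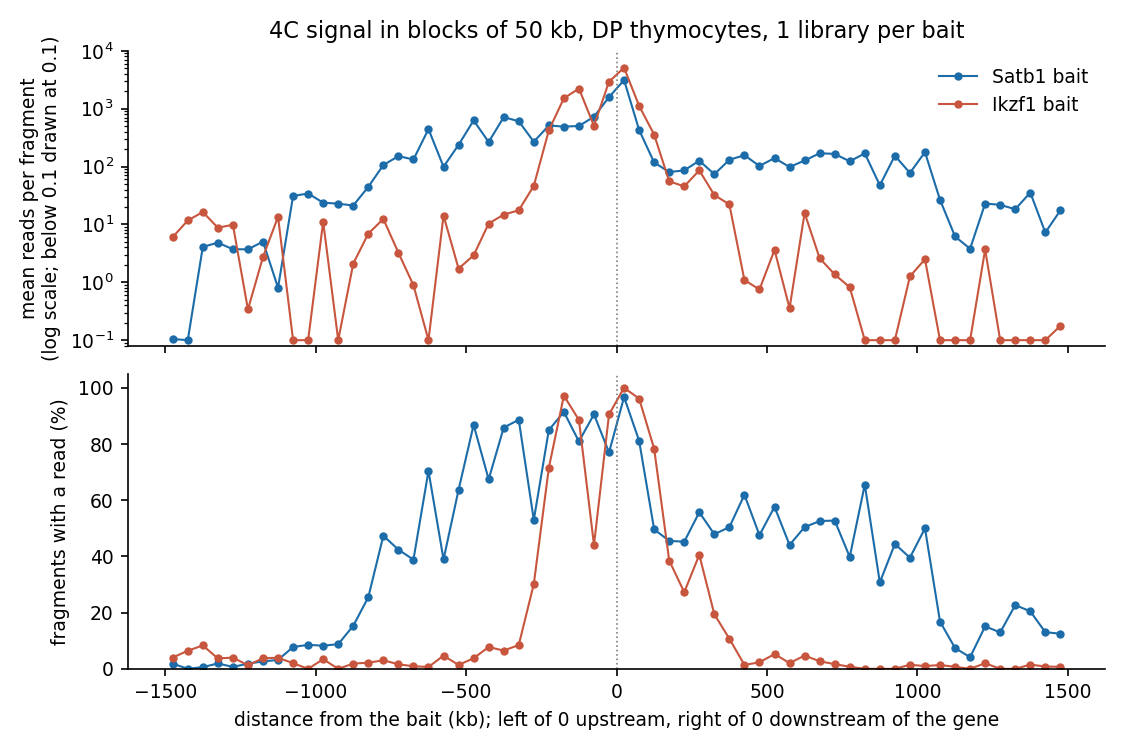
Mean reads per fragment (upper panel, log axis) and share of fragments with a read (lower panel, percent) in blocks of 50 kb by distance from the bait (kb). The upstream side of the bait is on the left and the downstream side on the right. Satb1 (blue) keeps a broad plateau on both sides and Ikzf1 (red) a narrow one. Upstream the curves cross several times. Satb1 is higher from 50 to 100 kb (724 reads against 506 for Ikzf1). From 150 to 200 kb it is lower (489 against 1513), and from 250 to 300 kb higher again (268 against 46.4). In the outermost upstream blocks Ikzf1 is higher at low levels, with 16.4 reads against 4.09 from 1350 to 1400 kb.

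The slope of log10 level on log10 distance over these 10 classes was -0.75 for Satb1 and -1.97 for Ikzf1, against -1.24 and -1.27 in the ES SCR replicates. This difference came from the far classes. Over the 6 nearest classes, from 20 to 267 kb, the slopes of both sides together were -0.62 and -0.69. These were closer than the ES SCR replicates were to each other over the same classes (-0.99 and -0.86). Within that range the upstream slopes were -0.07 for Satb1 and -0.39 for Ikzf1, and the downstream slopes -1.40 and -1.62. In the ES SCR replicates they were -1.06 and -0.94 toward Sox2 and -0.94 and -0.83 on the other side. On each side alone the promoters thus differed by more than the replicates. The upstream Satb1 levels stayed between 432 and 786 reads per fragment in these 6 classes. Those of Ikzf1 went from 2657 reads in the nearest class to 502 in the third, 1854 in the fifth and 599 in the last. A single slope therefore describes neither profile well, and the levels by class carry more of the pattern.

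The Ikzf1 profile ended sharply upstream. Between neighbouring windows of 100 kb that meet 240 kb upstream of the bait, the mean went from 1060 to 29.3 reads per fragment, 36.1-fold, and the share of fragments with a read from 85.2% to 21.1%. With windows of 50 kb the place was 230 kb, with a step of 14.8-fold. Both places lie inside Zpbp, which encodes a sperm protein that binds the zona pellucida and whose near end meets the gene 4930415F15Rik at 221 kb. Gm12599 and SNORA24 are annotated within 20 kb of the place at 240 kb. Downstream of Ikzf1 the step lay at 140 kb, from 869 to 53.5 reads (16.2-fold), inside Ddc, the gene for dopa decarboxylase, which begins 131 kb from the bait. Fignl1, which encodes an ATPase of DNA repair, ends at 125 kb. For Satb1 the upstream side had no step of that size where the inner window held at least 5% of the reads. The steepest such place, at 500 kb, went from 443 to 161 reads (2.76-fold). Downstream, the level went from 2202 to 107 reads (20.6-fold) at 90 kb, close to the 3′ end of Satb1, which lies 86.5 kb from the bait. The inner window began at the bait there and holds the reads piled up beside it, so this ratio cannot be set against the others. In blocks of 50 kb the downstream Satb1 levels were 3115 reads next to the bait, 429 from 50 to 100 kb and 118 from 100 to 150 kb. In the ES SCR replicates the same rule placed the step toward Sox2 at 170 and 180 kb, with 13.3-fold and 12.4-fold.

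These steps were sought only between windows whose inner one held at least 5% of the reads within 1.5 Mb, a condition added after the data were seen. Without it the steepest ratios lay between nearly empty windows, at 1400 kb upstream and 1100 kb downstream for Satb1 and at 1000 and 1280 kb for Ikzf1. With the condition and windows of 50 kb, 3 places moved, to 50 kb upstream and 60 kb downstream for Satb1 and to 50 kb downstream for Ikzf1. Windows of 50 kb hold fewer reads, so the condition leaves fewer places to compare. The 50 kb inside the Satb1 place at 500 kb upstream held 4.87% of the reads, under the limit. These moves thus cannot show whether the places are stable. The upstream Ikzf1 place, at 230 kb with windows of 50 kb, still met the condition.

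Counted in blocks of 50 kb, 30 on each side, a share of at least 25% of fragments with a read was found in 17 upstream and 21 downstream blocks for Satb1, and in 6 and 6 for Ikzf1. A level of at least 100 reads per fragment was found in 15 and 15 blocks for Satb1 and in 5 and 3 for Ikzf1. Measured against each library's own level beyond 5 Mb (1.39 reads per fragment for Satb1, 2.10 for Ikzf1), more than 2 times that level was found in 27 upstream and 30 downstream blocks for Satb1 and in 19 and 9 for Ikzf1. No block without a read lay downstream of Satb1 (0 of 30), 1 lay upstream of it, and for Ikzf1 there were 2 upstream and 6 downstream.

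Detection followed the same ranges. Within 200 kb the detection share was nearly equal, 76.3% of 945 for Satb1 and 77.7% of 965 for Ikzf1, over both sides. Upstream it was lower for Ikzf1 (76.9 against 85.0%) and downstream higher (78.8 against 67.0%). From 267 to 411 kb it was 64.1% (60.4 to 67.5%) for Satb1 and 15.9% (13.4 to 18.7%) for Ikzf1, and from 411 to 633 kb 57.0% (54.1 to 59.8%) and 2.80% (1.99 to 3.93%). Beyond 974 kb it was 10.2% and 2.24%, against 1.05% and 1.48% of fragments beyond 5 Mb. By side, the shares from 974 kb to 1.5 Mb were 2.91 and 3.51% upstream and 18.1 and 0.923% downstream. Between the ES SCR replicates the share within 1.5 Mb was 34.3 and 43.2%, a ratio of 1.26, while the ratio of Satb1 over Ikzf1 was 2.67.

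**Figure D3:**
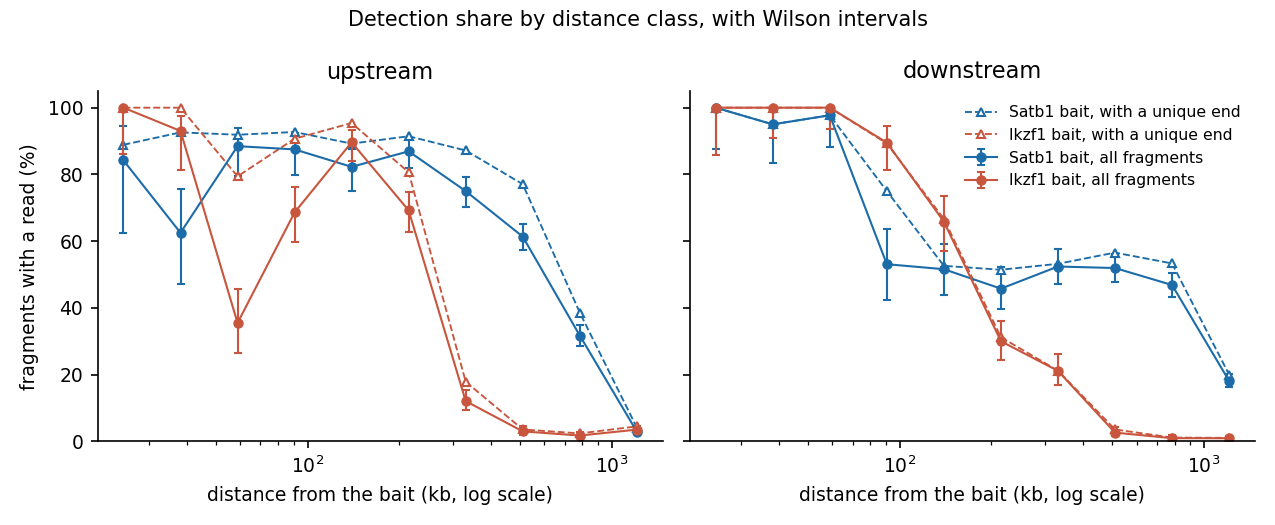
Share of DpnII fragments with at least 1 read (y axis, percent) by distance class (x axis, kb, log scale), upstream and downstream; filled points are all fragments with 95% Wilson intervals and open triangles are fragments with at least 1 end unique in mm9. Upstream, the dip of Ikzf1 at 47.4 to 73.0 kb (35.5% of all fragments) is at 79.4% among fragments with a unique end, and beyond 411 kb the Ikzf1 share is below 5% on both sides.

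Whether a fragment can be read at all depends on its sequence. At the prey length, 84.4% of the Satb1 fragments and 77.4% of the Ikzf1 fragments within 1.5 Mb have at least 1 end that occurs 1 time among the DpnII ends of mm9. Fragments with no unique end had a read in 2.63% of 1177 cases for Satb1 and 2.12% of 1748 for Ikzf1. Where both ends were unique, the share was 49.2% and 20.5%. Within 20 to 200 kb these shares were 82.3% of 718 and 87.7% of 682. A stretch upstream of Ikzf1 was poor in unique ends. From 47.4 to 73.0 kb only 36.6% of the 93 fragments have a unique end, the detection share was 35.5%, and the level was 502 reads per fragment against 1280 per fragment with a unique end. Among fragments with a unique end, over both sides, the level was higher for Ikzf1 in each of the 6 nearest classes, by 1.19-fold to 3.84-fold. In the other 4 it was higher for Satb1, by 5.98-fold to 52.2-fold. Downstream alone, from 173 to 267 kb, Satb1 was higher, with 93.6 reads against 56.9. Upstream alone, from 974 kb to 1.5 Mb, the levels were 11.7 for Satb1 and 8.03 for Ikzf1.

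Fragments with a Csp6I site, which the second digestion can shorten before circularization, held 66.3% of the reads for Satb1 and 66.2% for Ikzf1, although they were 45.4% and 45.2% of the fragments. Their mean level was 321 reads for Satb1 and 322 for Ikzf1, against 136 and 136 for fragments without the site. Detection was higher on longer fragments in both libraries, from 31.3% below 100 bp to 45.4% from 800 bp for Satb1 and from 12.2% to 17.7% for Ikzf1. In these technical features the 2 libraries were close to each other.

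The total share of reads upstream was similar for the promoters, 57.1% for Satb1 and 59.3% for Ikzf1, and beyond 20 kb it was 66.3 and 71.9%. The difference over all distances, 2.16 percentage points, was -1.72 when every second fragment was taken (even-numbered ones) and 6.86 with the others, so it had no stable direction. The ES SCR replicates differed by 0.511 points. By distance the promoters did differ in side. For Satb1 the downstream side was higher within 73.0 kb of the bait (upstream over downstream 0.459, 0.524 and 0.947 in the 3 nearest classes), the upstream side was higher from 73.0 to 633 kb (2.53 to 5.70), and downstream was higher again beyond (0.772 and 0.239). For Ikzf1 the upstream side stood out over a shorter range, from 112 to 267 kb, where the ratios were 9.48 and 11.0.

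**Figure D4:**
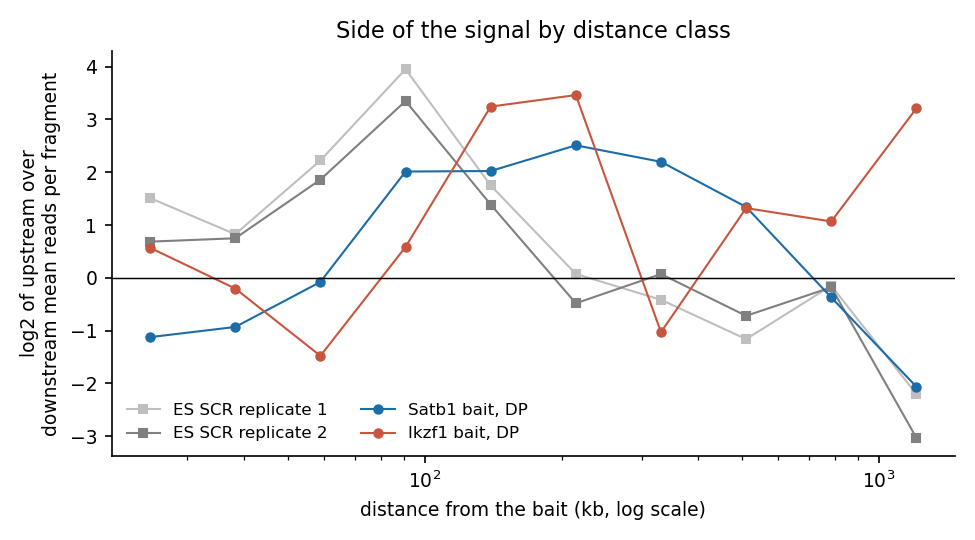
Log2 of the upstream over the downstream mean reads per fragment (y axis) by distance class (x axis, kb, log scale); values above 0 are higher upstream, and for the ES SCR replicates (grey) upstream stands for the side toward Sox2. Satb1 (blue) is above 0 from 73.0 to 633 kb and Ikzf1 (red) is highest from 112 to 267 kb, while beyond 411 kb the Ikzf1 ratios rest on levels of 0.732 to 6.78 reads per fragment.

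The genes around the baits lie differently. The bait genes had a mean of 2615 reads per fragment over the 204 fragments of Satb1 and 2237 over the 176 fragments of Ikzf1. A read was found on 94.6 and 98.9% of these fragments. Satb1 spans its bait, from 10.6 kb upstream to 86.5 kb downstream, while Ikzf1 begins 1.49 kb downstream of its bait. The means of the bait genes thus cover unlike spans beside the bait and cannot be compared. Over the noncoding neighbours of Ikzf1 the levels were 5155 for Gm11999, which overlaps the bait, and 3422 for Gm11998, from 104 to 126 kb upstream. The Gm11999 level includes the fragment with the bait position (124337 reads) and its neighbour at 1.12 kb (61345 reads), so these 2 levels cannot be compared. Gm11998 is named because the 5 most read fragments lie in it, after its values were seen. It was read on 94.7% of its 57 fragments.

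Upstream of Satb1 no protein-coding gene lies between 20 and 700 kb, so the broad upstream signal, 564 reads per fragment from 20 to 200 kb and 374 from 200 to 700 kb, was on DNA between genes. The first protein-coding gene on that side is Kcnh8, which encodes a voltage-gated potassium channel and begins 903 kb from the bait. Its level was 25.9 reads per fragment, 0.450 times the mean of its distance classes over both sides and 0.588 times that of its own side, and a second entry of the same name from 1131 to 1160 kb had 10.0 reads (0.482 and 1.21 times). Downstream, Tbc1d5, which encodes a regulator of Rab GTPases and of the retromer, spans 643 to 1090 kb. It had 127 reads per fragment with a read on 44.2% of its 1033 fragments, 1.37 times the mean of its distance classes and 1.18 times that of its own side. Past it the level was low, with 14.1 reads for Plcl2, a phospholipase C-like protein (0.677 and 0.407 times), and 0 reads on the 3 fragments of Gm7334. From 700 kb to 1.5 Mb downstream, protein-coding genes held 91.3% of the reads on 69.8% of the fragments. Tbc1d5 takes up the near part of that range, and the level was 177 reads from 1000 to 1050 kb but 6.19 from 1100 to 1150 kb. Genes and distance therefore cannot be told apart in this share.

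Around Ikzf1 genes are closer together, and the level differed between neighbours. As above, each level is read against the mean of its distance classes over both sides first and over its own side second, the latter added after the data were seen. Upstream, 4930512M02Rik (55.7 to 94.3 kb) had 548 reads per fragment, 0.598 and 0.640 times these means, and 4930415F15Rik (168 to 221 kb) had 1122 reads, 2.86 and 1.59 times, with a read on 98.1% of its 106 fragments. Zpbp begins where the latter ends and had 51.2 reads over 530 fragments, 0.511 and 0.321 times. Within 5 kb of the Zpbp start site, at 221 kb, the level was 903 reads, so that the low level belonged to the part of the gene farther out. Vwc2, which encodes a secreted inhibitor of BMP signalling, had 7.12 reads from 415 to 569 kb, 1.91 and 1.33 times. Downstream, Fignl1 (104 to 125 kb) had 398 reads, 0.369 and 0.970 times, and Ddc (131 to 215 kb) had 95.0, 0.135 and 0.792 times. For Grb10, an imprinted adaptor of insulin signalling (247 to 355 kb), the level was 59.6 reads, 0.614 times the mean over both sides but 1.32 times that of its own side. Cobl, an actin nucleator from 553 to 781 kb, had 4.27 reads (1.34 and 2.18 times) and was read on 2.38% of its 505 fragments. Against their own side Fignl1 and Ddc were thus nearer to the mean of their distance, while Zpbp stayed below it and 4930415F15Rik above it.

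Reads per fragment with a read were higher for Ikzf1, with a median of 357 (25th percentile 64 and 75th 1420) against 155 (25 and 612) for Satb1, and a mean of 1499 against 560. The ratio of the medians was 2.30, while the medians of the ES SCR replicates, 150.5 and 101, had a ratio of 1.49, and their means had 2.11 where the promoters had 2.68. Both ratios between the promoters were larger than those between the 2 libraries of 1 bait. The replicate ratios include a difference in depth, 5540487 against 3300544 reads within 1.5 Mb, so the 2 scales are not alike. As the promoters had nearly equal reads within 1.5 Mb, their ratio of means restates the detection ratio of 2.67 and is no separate result. For Ikzf1, 69 fragments held 50% of the reads within 1.5 Mb, 6.06% of those with a read, and for Satb1 220 fragments did, 7.43%. The 1% of detected fragments with most reads held 23.0% for Ikzf1 (12 fragments) and 21.9% for Satb1 (30 fragments), against 29.2 and 32.6% in the ES SCR replicates. Fragments with a single read were 2.37 and 2.60% of the detected ones for Ikzf1 and Satb1.

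**Figure D5:**
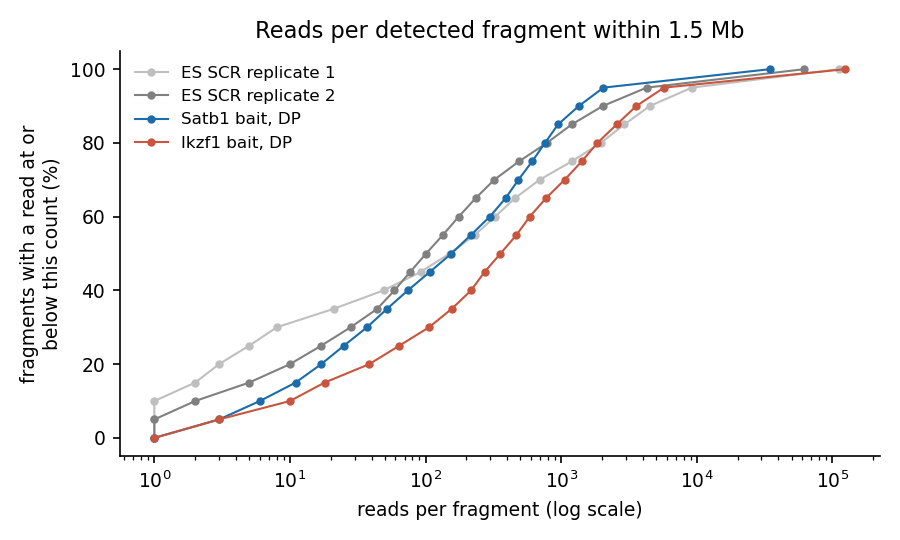
Share of detected fragments within 1.5 Mb with at most the given number of reads (y axis, percent) against reads per fragment (x axis, log scale). The Ikzf1 curve (red, median 357) lies to the right of the Satb1 curve (blue, median 155), and the 2 ES SCR replicates (grey, medians 150.5 and 101) cross each other.

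The same Satb1 bait in ES cells had 50% of its reads within 240 kb and 90% within 908 kb, with 50.4% of fragments detected, so its extent was nearer to that of DP Satb1 than to that of DP Ikzf1. Its upstream share was 40.7% against 57.1% in DP thymocytes, again with 1 library a side.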

How the data were processed

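The deposited files give, for each library, the count of reads on every DpnII fragment of chromosome 17 (Satb1) or 11 (Ikzf1). Before deposit the authors removed the bait part of each read, with up to 2 mismatches allowed, mapped the remaining prey bases to mm9 with Bowtie (version 1.0.0 and bcl2fastq per the submitters' processing notes) and assigned reads to fragments. Their user guide says that this last step drops fragments holding over 2% of the total reads. The Ikzf1 file keeps 2 fragments over 2% of its deposited sum. That sum leaves out reads dropped before deposit, so whether these fragments passed the guide's limit cannot be told. The counts were neither normalized nor freed of PCR duplicates. The labels give 0.4% SDS for all nuclei and the methods 0.7% for DP nuclei. Every listed midpoint matched a DpnII fragment of mm9, and genes were taken from GENCODE vM1.

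Here, Python 3.11.15 (numpy 2.4.6, pandas 2.3.3, scipy 1.17.1, matplotlib 3.10.9) was used to compute, within 1.5 Mb of the bait, the distances holding 50, 75 and 90% of reads, mean reads per fragment in 10 log-spaced classes from 20 kb, their slope, the share of fragments with at least 1 read (95% Wilson intervals) and reads per such fragment. A step is the place of the largest ratio between adjoining windows of 100 kb, moved by 10 kb from 50 kb to 1.4 Mb. End uniqueness was taken over all DpnII ends of mm9 at the prey length. Calculations were tested on simulated profiles. No test between libraries was made, since each bait has 1 library.

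Sides are counted from the bait and follow transcription: upstream means higher coordinates for Satb1, on the minus strand, and lower ones for Ikzf1, on the plus strand. The Satb1 bait lies inside the annotated gene, which reaches 10.6 kb upstream of it. Named genes are the bait genes, the 3 nearest protein-coding genes on each side, up to 5 within 1.5 Mb with at least 10 fragments and the highest level over their distance class mean, and genes within 20 kb of a step. Members, lists and measures were chosen with earlier results of these data known. Alternatives covered the bait surroundings, range, capping, fragment subsets, classes and minimum reads. Reads from other chromosomes were not analysed here.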

Additional observations from a re-analysis of the deposited data

Results flagged for a closer look

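In 4 distance classes the 2 promoters leaned to opposite sides. From 20 to 30.8 kb the upstream over downstream level was 0.459 for Satb1 and 1.48 for Ikzf1. From 267 to 411 kb it was 4.59 and 0.489, from 633 to 974 kb 0.772 and 2.10, and from 974 kb to 1.5 Mb 0.239 and 9.26. The difference was not tested, as each bait had 1 library. In the 2 outermost of these classes the Ikzf1 levels were 0.732 to 6.78 reads per fragment, near its level of 2.10 beyond 5 Mb.

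Outside the range compared, beyond 1.5 Mb on the bait chromosome, lay 17.0% of reads for Satb1 and 26.3% for Ikzf1. In the ES SCR replicates these shares were 14.1 and 15.7%.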

How the results depend on the processing

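No paired analysis was possible because each promoter had 1 library and the titles of these libraries carry no replicate number. The order of extent, slope, detection and reads per detected fragment did not change under any alternative run: Satb1 stayed above Ikzf1 in the 50, 75 and 90% distances and in the share of fragments detected, and Ikzf1 stayed steeper and higher in reads per detected fragment. The ratio of the 50% distances, 4.37, was 4.07 with counts capped at the 99th percentile, 3.14 with each detected fragment counted once, 3.08 without fragments over 2% of the library, 4.68 on fragments with a GTAC site, 2.94 on odd-numbered fragments, 6.83 on even-numbered fragments, 2.58 without 5 kb around the bait, 3.15 without 20 kb, 3.94 within 1 Mb and 4.29 within 3 Mb. In the same order, the ratio of the 90% distances, 4.00, was 4.05, 2.07, 3.90, 4.20, 3.78, 4.38, 3.89, 3.97, 3.75 and 4.22. The upstream difference (Ikzf1 minus Satb1, 2.16 points) was, in that order, 3.13, 6.84, 5.37, 0.167, 6.86, -1.72, 8.16, 5.61, 0.857 and 2.68, and 1.80 on fragments with a unique end. It thus turned on even-numbered fragments and was near 0 on fragments with a GTAC site, and the cause was not tested. The slope difference (Satb1 minus Ikzf1, 1.21) was 0.60 from 5 kb, 1.41 from 50 kb, 0.80 with each fragment counted once, 1.26 on GTAC fragments, 1.22 and 1.24 on odd-numbered and even-numbered ones, 1.22 per kb of fragment, 1.19 in 20 classes and 1.22 on fragments with a unique end. Over the 6 nearest classes it was 0.0692, since the far classes are left out there. With a minimum of 5% of reads fewer windows of 50 kb can be compared, and the place of the step is the least stable value. As a ratio of Satb1 over Ikzf1 it was above 1 upstream and 0.859 downstream without a minimum of reads. Upstream it was 0.217 with windows of 50 kb holding at least 5% of reads, and downstream 1.08 with windows of 50 kb and 1.20 with such windows holding at least 5% of reads. The unique-end, 6-class, step-window and own-side alternatives were chosen after seeing the data. The detection ratio lay between 2.50 and 2.79 over 7 alternatives, thinning to the shallower library and a minimum of 10 reads included, and the ratio of reads per detected fragment between 1.90 and 2.68 over 6. Of 65 recomputed values with a counting interval, 14 stayed within that of the main value, 50 moved beyond it in the same direction and 1 turned. The levels of 12 gene entries were also read against the class mean of their own side, and 2 of them turned, Grb10 to 1.32 and the second Kcnh8 entry to 1.21. These intervals are narrow because they count reads. PCR duplicates and the lack of a second library for either promoter limit the precision far more than depth does.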
